A study of Mus musculus with 12 samples.

Results

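Inguinal white fat of the mouse groin expressed the enzymes that make serine from glucose and pass its carbon to folate, here followed through 10 genes, Phgdh, Psat1, Psph, Shmt1, Shmt2, Mthfd1, Mthfd2, Mthfd1l, Mthfd2l and Aldh1l2. They were chosen by symbol from the 24344 genes of the expression table, and all 10 were found there. Total RNA had been sequenced from 12 C57BL/6J mice aged 10 weeks by the labels, 3 per group, here called WT_30C and WT_8C for the label WT, and AKO_30C and AKO_8C for the label AKO. All mice had 4 weeks at room temperature and then 6 weeks at 30 °C, where little extra heat production is needed, before 3 more days at 30 °C or at 8 °C. The labels give the AKO genotype as IRE1(alpha)-/- and the other as WT, while the series title names Ern1f/f and Ern1f/f AKO, so the WT mice may carry the floxed alleles too. Neither the spelled-out form of AKO nor a Cre driver is given there. The unit is FPKM, which divides the fragments of a gene by its length and by the size of the library, so levels can be compared between genes, but the reads behind each value are unknown.

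Serine is made from a glycolytic intermediate by phosphoglycerate dehydrogenase (Phgdh), phosphoserine aminotransferase (Psat1) and phosphoserine phosphatase (Psph), in that order. Serine hydroxymethyltransferase then moves a carbon from serine to tetrahydrofolate, giving glycine, either in the cytosol (Shmt1) or in mitochondria (Shmt2). In mitochondria, Mthfd2 or its paralog Mthfd2l oxidises the folate-bound carbon, Mthfd1l releases it as formate, and Aldh1l2 can burn it to carbon dioxide while making NADPH. In the cytosol, the trifunctional enzyme Mthfd1 takes up formate and serves purine and thymidylate synthesis. Mthfd2, Shmt2, Psat1 and Phgdh are known targets of ATF4, the transcription factor of the integrated stress response.

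Mthfd2 differed most by genotype, and Shmt1 and Shmt2 went opposite ways in the cold in WT, so the 250 bases before their RefSeq starts (GRCm38.p6, minus strand of the genome, read 5′ to 3′) are shown, with each CG dinucleotide in capitals. The Mthfd2 stretch lies at chr6:83317605-83317854, that of Shmt1 at chr11:60811266-60811515 and that of Shmt2 at chr10:127522445-127522694. On GRCm38 the annotated genes span chr6:83305691-83325908 for Mthfd2, chr11:60788104-60811718 for Shmt1 and chr10:127517123-127522444 for Shmt2, so the stretches of Mthfd2 and Shmt1 lie inside the span of longer annotated transcripts.
Mthfd2: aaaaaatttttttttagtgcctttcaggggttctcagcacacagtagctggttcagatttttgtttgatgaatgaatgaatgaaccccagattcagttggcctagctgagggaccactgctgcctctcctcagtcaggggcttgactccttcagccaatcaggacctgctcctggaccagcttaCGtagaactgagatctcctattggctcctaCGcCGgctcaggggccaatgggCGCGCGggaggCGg
Shmt1: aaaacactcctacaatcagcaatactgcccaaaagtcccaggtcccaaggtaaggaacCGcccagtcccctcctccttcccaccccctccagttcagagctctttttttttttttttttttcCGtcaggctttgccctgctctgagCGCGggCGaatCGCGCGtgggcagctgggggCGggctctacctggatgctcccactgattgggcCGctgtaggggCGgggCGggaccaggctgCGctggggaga
Shmt2: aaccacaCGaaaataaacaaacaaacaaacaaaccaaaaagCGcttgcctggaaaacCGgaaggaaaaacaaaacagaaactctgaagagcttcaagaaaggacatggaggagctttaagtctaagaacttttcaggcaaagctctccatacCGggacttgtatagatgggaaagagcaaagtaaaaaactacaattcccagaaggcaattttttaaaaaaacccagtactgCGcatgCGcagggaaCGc
They hold 7 CG in Mthfd2, 13 in Shmt1 and 7 in Shmt2, where the median of 32851 promoters was 6. Promoters of 9 of the 10 genes were matched by symbol, 10 windows in all, running from 250 bases before the start to 50 after it. The core of the element bound by ATF4, TGATGNAA, was in 0 of these 10 windows on either strand and in 3.97% of all promoters. The E-box CACGTG, which reads alike on both strands and whose end can share bases with the former, was also in 0 of 10 and in 7.15% of all promoters. This says only that these letters are not in these windows.

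Before the results, the genotype labels were checked on Ern1, which encodes IRE1. Ern1 was 2.94 ± 0.395 FPKM in WT_30C (SD, n = 3, as for all means here), 4.06 ± 0.544 in AKO_30C, 4.96 ± 0.375 in WT_8C and 7.04 ± 0.288 in AKO_8C. Libraries with the AKO label thus had no less Ern1 than WT libraries, and a level summed over exons cannot show whether some exons were deleted, so every direction below rests on the labels, and AKO stands for the libraries labelled AKO. Fat markers fitted the tissue, with the 10 adipocyte genes summing to between 30910 and 73510 FPKM in a library. Lymphocyte markers were also high, the 8 B cell genes summing to 242.5 to 1244 FPKM and 11 T cell genes to 163.8 to 752 FPKM. The 10 mammary epithelial genes summed to 76.3 FPKM in WT_8C replicate 1 and to 2.82 to 10.0 FPKM in the other 11 libraries. In such whole tissue, fewer cells of a type and less RNA per cell cannot be told apart.

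By level, Phgdh led with a mean of 94.4 FPKM over the 12 libraries, above 92.8% of the 13215 genes tested. Psat1 followed at 41.2 FPKM, Shmt2 at 27.9, Psph at 21.9, Mthfd2 at 18.5, Mthfd1 at 15.4, Shmt1 at 12.9, Mthfd1l at 5.69 and Mthfd2l at 2.92 FPKM. Aldh1l2 was the lowest, between 0.105 and 0.436 FPKM, and reached 1 FPKM in 0 of 12 libraries, so it did not pass the filter of 1 FPKM in at least 3 libraries. The other 9 reached 1 FPKM in all 12. The order depended on the group. Shmt2 exceeded Psph in every library at 30 °C and lay below it in every library at 8 °C. Neighbours in this order from Phgdh to Mthfd2l had overlapping ranges over the 12 libraries, while Mthfd2l lay above Aldh1l2, and Shmt2 above Mthfd1, throughout.

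**Figure D1:**
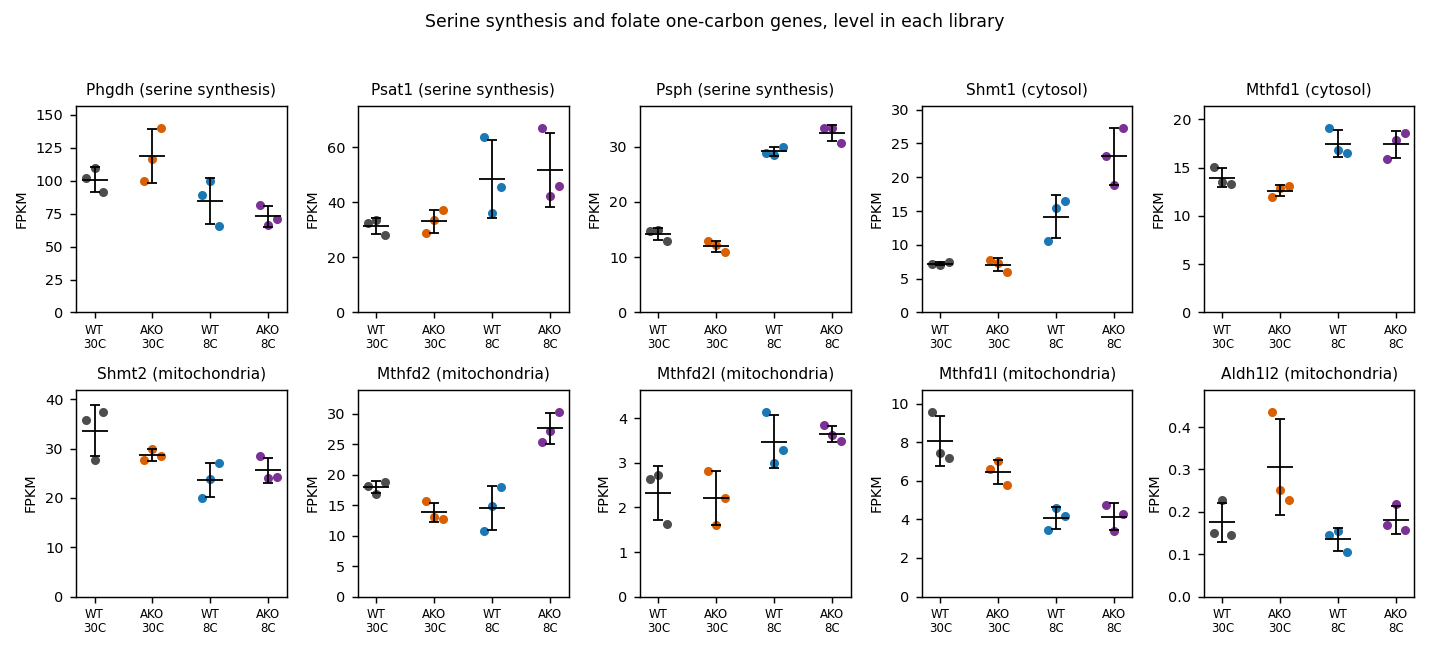
Level of each of the 10 genes in FPKM in each library (points, 3 per group) with the group mean and SD (bars), titled with the pathway part of each. Mthfd2 sits between 25.4 and 30.3 FPKM in AKO_8C, above all other libraries, and Aldh1l2 stays at or below 0.436 FPKM.

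The comparison of 8 °C with 30 °C in WT asks how cold changed these genes in fat of the control genotype. After 3 days in the cold, the cytosolic enzymes and the later steps of serine synthesis rose, while Shmt2 and Mthfd1l of the mitochondrial arm fell. Of the 9 genes tested, 4 rose (Psat1, Psph, Shmt1 and Mthfd1) and 2 fell (Shmt2 and Mthfd1l), with limma's test and an adjusted p of 0.05 over all genes. Of all genes tested, 24.3% were higher and 24.7% lower, so 49.6% of the calls were upward, against 35.4% with each library scaled to the same sum. The median log2 fold change of the 9 genes was 0.30, against -0.01 over all genes.

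Psph, the phosphatase of the last step, had 14.8, 14.9 and 13.0 FPKM in WT_30C and 28.8, 28.5 and 30.0 FPKM in WT_8C. The groups did not overlap, and the log2 fold change on the scale of FPKM + 1 was 0.99 (SE 0.09, adjusted p = 9.35e-06). In the libraries labelled AKO it went from 12.8, 12.1 and 10.9 to 33.4, 33.3 and 30.7 FPKM, which is 1.37 on the same scale (SE 0.09, adjusted p = 4.06e-07). Psph shares 452 exonic bases with Cct6a on the opposite strand, and whether counting used strand is not given in the sources used here. Cct6a, a chaperonin subunit, went from 63.0 ± 8.71 to 57.6 ± 6.39 FPKM in WT and from 56.0 ± 5.34 to 64.47 ± 5.197 FPKM in AKO, without passing the test.

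Psat1, the aminotransferase, rose from 32.4, 33.6 and 28.0 FPKM to 63.8, 36.0 and 45.5 FPKM in WT (log2 fold change 0.58, SE 0.20, adjusted p = 0.0338). In AKO it rose from 28.8, 33.6 and 37.1 FPKM to 67.0, 42.2 and 45.9 FPKM (0.60, SE 0.20, adjusted p = 0.0273). Replicate 1 was the highest of both cold groups. Without WT_8C replicate 1 the change in WT was 0.36 (adjusted p = 0.145), and without AKO_8C replicate 1 that in AKO was 0.41 (adjusted p = 0.116), so neither call held. The WT call was also lost without WT_30C replicate 1 or 3 or WT_8C replicate 3 (adjusted p = 0.0651, 0.106 and 0.0612), and the AKO call without AKO_30C replicate 1 or 2 (0.0920 and 0.0584). Phgdh, the dehydrogenase of the first step, did not rise with them. It had 101.7, 109.8 and 91.1 FPKM in WT_30C and 89.2, 99.9 and 65.6 FPKM in WT_8C, a log2 difference of -0.26 that did not pass (adjusted p = 0.196). In AKO it fell from 99.5, 116.8 and 140.1 FPKM to 81.6, 66.2 and 70.9 FPKM (-0.69, SE 0.16, adjusted p = 0.00404), without overlap. The 3 serine synthesis genes therefore did not move as a block, and the ratio of Psph to Phgdh went from 0.141 ± 0.00484 in WT_30C to 0.355 ± 0.0903 in WT_8C, and from 0.103 ± 0.0258 to 0.448 ± 0.0486 in AKO.

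Shmt1, the cytosolic hydroxymethyltransferase, stood at 7.24, 7.02 and 7.41 FPKM in WT_30C and at 10.6, 15.5 and 16.5 FPKM in WT_8C, a rise of 0.86 (SE 0.17, adjusted p = 0.00133). In AKO it rose from 7.81, 7.34 and 5.95 FPKM to 23.2, 18.8 and 27.3 FPKM, by 1.58 (SE 0.17, adjusted p = 1.33e-05), and neither pair of groups overlapped. Shmt1 shares 184 exonic bases with Smcr8 on the opposite strand, and Smcr8 was 9.41 to 11.1 FPKM in the group means. Mthfd1 rose less, from 13.97 ± 0.984 to 17.5 ± 1.43 FPKM in WT (0.30, SE 0.10, adjusted p = 0.0214) and from 12.6 ± 0.585 to 17.4 ± 1.40 FPKM in AKO (0.43, SE 0.10, adjusted p = 0.00292). The WT call of Mthfd1 was lost when WT_30C replicate 2, WT_30C replicate 3 or WT_8C replicate 1 was left out (adjusted p = 0.0524, 0.0705 and 0.0862).

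Shmt2, the mitochondrial counterpart, had 35.9, 27.8 and 37.5 FPKM in WT_30C and 20.0, 23.9 and 27.0 FPKM in WT_8C, a fall of 0.49 on the log2 scale (-0.49, SE 0.13, adjusted p = 0.00914). In AKO it had 27.6, 29.9 and 28.6 FPKM at 30 °C and 28.5, 24.1 and 24.2 FPKM at 8 °C, where the groups overlapped and the log2 difference of -0.16 did not pass (adjusted p = 0.320). With each library scaled to the same sum this was called as a fall (-0.42, adjusted p = 0.0150). Mthfd1l, the formate-releasing ligase, fell in both genotypes. It went from 9.57, 7.42 and 7.18 FPKM to 3.46, 4.60 and 4.16 FPKM in WT (-0.83, SE 0.14, adjusted p = 0.000564) and from 6.62, 7.02 and 5.80 FPKM to 4.75, 3.41 and 4.28 FPKM in AKO (-0.54, SE 0.14, adjusted p = 0.00750). Mthfd2l went the other way, from 2.33 ± 0.602 to 3.48 ± 0.593 FPKM in WT (0.44, adjusted p = 0.0511, not called) and from 2.21 ± 0.600 to 3.66 ± 0.178 FPKM in AKO (0.55, adjusted p = 0.0179). In WT it was called with the replicate block (adjusted p = 0.0328), without the variance trend (0.0454), with median-ratio scaling (0.0388), and without WT_30C replicate 2 (0.0396) or WT_8C replicate 2 (0.0492). The AKO call of Mthfd2l was lost without AKO_30C replicate 2 (adjusted p = 0.0801) or AKO_8C replicate 1 (0.0508). Aldh1l2 was listed at 0.175 ± 0.0466 FPKM in WT_30C, 0.305 ± 0.114 in AKO_30C, 0.135 ± 0.0268 in WT_8C and 0.181 ± 0.0331 in AKO_8C, and 1056 bases of its exons overlap D10Wsu102e on the opposite strand, at 7.38 to 10.0 FPKM in the group means.

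Other cells moved with temperature too. The summed T cell markers ranged from 541.8 to 752 FPKM in WT_30C and from 231.4 to 283.3 FPKM in WT_8C, and from 429.7 to 487.6 FPKM in AKO_30C and from 163.8 to 218.8 FPKM in AKO_8C. The 10 cell division markers summed to between 149.6 and 194.7 FPKM in WT_30C, 95.8 and 114.5 in WT_8C, 149.3 and 155.5 in AKO_30C, and 88.5 and 132.2 in AKO_8C. B cell markers went from between 908.3 and 1244 FPKM in WT_30C to between 436.1 and 610.6 in WT_8C, and from between 756.6 and 1033 in AKO_30C to between 242.5 and 582.5 in AKO_8C. Skeletal muscle markers went from between 2066 and 5225 FPKM to between 471.6 and 1066 in WT, and from between 2191 and 4348 FPKM to between 224.7 and 648.4 in AKO. Brown and beige adipocyte markers, 8 genes, ranged from 673.7 to 1494 FPKM at 30 °C and from 7365 to 12580 FPKM at 8 °C. The part of these shifts in the changes of Shmt2, Mthfd1l and the other members was not tested.

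**Figure D2:**
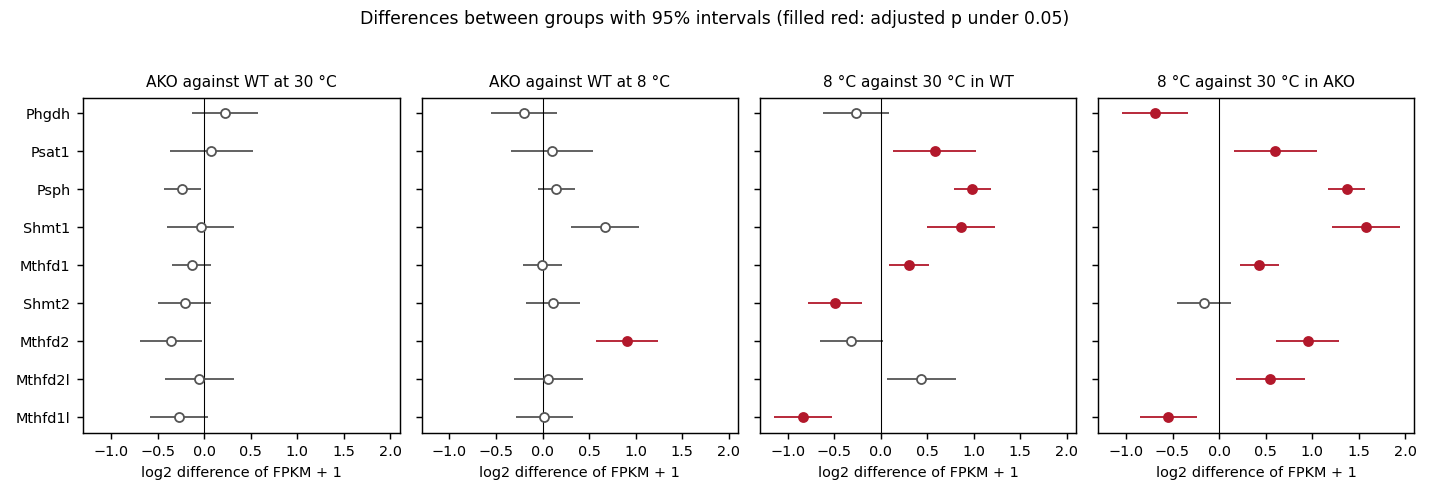
Log2 difference between groups on the scale of FPKM + 1 for the 9 tested genes (points) with limma's 95% interval (bars), filled red where the adjusted p was under 0.05. In the cold Psph, Shmt1 and Mthfd1 lie to the right and Mthfd1l to the left of 0 in both genotypes, and Mthfd2 is the only filled point in the comparison of genotypes, at 8 °C.

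The comparison of 8 °C with 30 °C in the libraries labelled AKO called 8 of the 9 genes. Psat1, Psph, Shmt1, Mthfd1, Mthfd2 and Mthfd2l rose and Phgdh and Mthfd1l fell, against 26.5% of all genes tested higher and 23.1% lower. Upward calls were 53.4% of all calls there, 41.2% with upper quartile scaling and 30.1% with equal sums. Their median log2 fold change was 0.55, against 0.00 over all genes. Mthfd2 had 15.7, 13.0 and 12.7 FPKM in AKO_30C and 25.4, 27.1 and 30.3 FPKM in AKO_8C, a rise of 0.95 (SE 0.15, adjusted p = 0.000342). In WT it had 18.2, 16.8 and 18.8 FPKM at 30 °C and 10.7, 14.8 and 18.0 FPKM at 8 °C, where the groups overlapped and the log2 difference was -0.32 (SE 0.15, adjusted p = 0.109). The WT difference was called as lower when WT_8C replicate 3 was left out (-0.48, adjusted p = 0.0224) and with each library scaled to the same sum (-0.45, adjusted p = 0.0324). With that scaling the median of all genes moved to -0.14 in WT and -0.22 in AKO, and relative to that median Mthfd2 stood at -0.31 in WT and 0.92 in AKO.

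**Figure D3:**
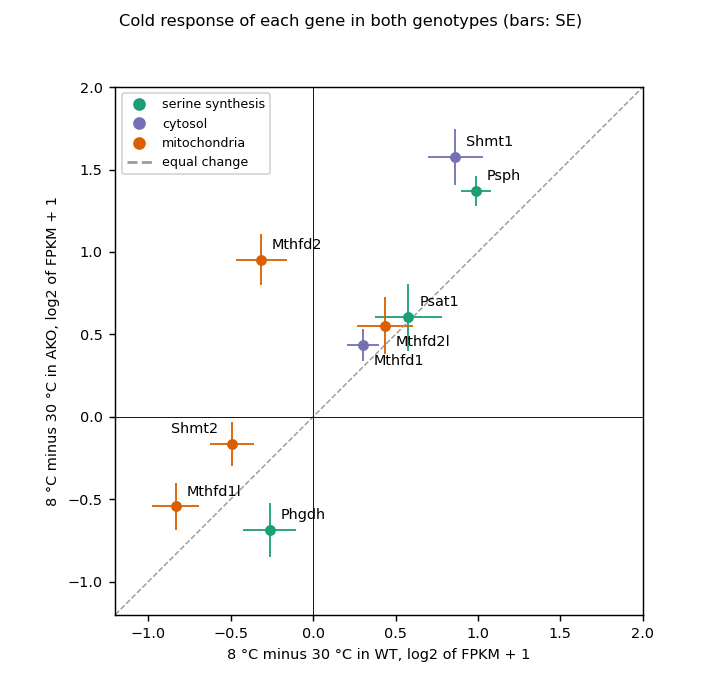
Cold response of the 9 tested genes, as the log2 difference of 8 °C and 30 °C in WT (horizontal) and in AKO (vertical), with standard errors as bars and the line of equal change dashed. Mthfd2 lies farthest from the line, at -0.32 in WT and 0.95 in AKO, and no other gene has opposite signs.

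Setting AKO against WT at 8 °C addresses the effect of the genotype in cold fat, and this contrast shares its libraries with the cold comparisons above. Mthfd2 was the member that rose, by 0.91 (SE 0.15, adjusted p = 0.0259), from 14.5 ± 3.65 to 27.6 ± 2.50 FPKM, and the 3 AKO_8C values lay above the 3 WT_8C values. Thus 1 of 9 was higher and 0 were lower, where 1.46% of all genes tested were higher and 0.568% lower. Of all calls 72.0% were upward, against 56.8% with upper quartile scaling and 47.5% with equal sums. The call of Mthfd2 was lost without AKO_8C replicate 3 (0.84, adjusted p = 0.118) and when the 6 libraries at 8 °C were fitted alone (adjusted p = 0.0740), in a range of 0.0130 to 0.118 over the alternatives. Calls over all genes fell there too, from 193 higher and 75 lower to 17 and 6 without that replicate. With the 6 libraries alone they fell to 5 and 1. Shmt1 had the next largest difference, 14.2 ± 3.16 FPKM in WT_8C and 23.1 ± 4.24 FPKM in AKO_8C, without overlap, and missed the threshold (0.67, 95% interval 0.31 to 1.04, adjusted p = 0.0601). It passed when only genes at 5 FPKM or more in at least 3 libraries were tested (adjusted p = 0.0491), in a range of 0.0491 to 0.229. The authors' deposited table for 8 °C lists both, Shmt1 with a log2 fold change of 0.70 and Mthfd2 with 0.93, each with a q-value of 0.000301, and none of the other 8 members. Psph was 29.1 ± 0.779 FPKM in WT_8C and 32.4 ± 1.52 FPKM in AKO_8C, without overlap and without passing (0.15, adjusted p = 0.398).

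The remaining members did not pass the test between the genotypes at 8 °C. The log2 difference was 0.11 for Shmt2 (95% interval -0.17 to 0.40), 0.02 for Mthfd1l (-0.29 to 0.33), -0.00 for Mthfd1 (-0.21 to 0.21) and 0.06 for Mthfd2l (-0.31 to 0.44). For Psat1 it was 0.10 (-0.34 to 0.55) and for Phgdh -0.20 (-0.55 to 0.15). Mthfd2 thus stood apart from Shmt2, the enzyme that feeds it, and the ratio of Mthfd2 to Shmt2 was 0.535, 0.620 and 0.666 in WT_8C against 0.891, 1.13 and 1.25 in AKO_8C. At 30 °C that ratio was 0.507, 0.607 and 0.502 in WT and 0.568, 0.434 and 0.446 in AKO, where the groups overlapped. Brown and beige markers summed to 7365 to 8983 FPKM in WT_8C and 10250 to 12580 FPKM in AKO_8C. Of these 8 genes limma called 2 higher, Dio2 and Ppargc1a, and 0 lower, against 1.46% and 0.568% of all genes. Ucp1, Cox8b, Cox7a1 and Cidea did not pass (adjusted p = 0.588, 0.480, 0.206 and 0.306). The part of this difference in that of Mthfd2 was not tested.

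For the effect of the genotype without cold, at 30 °C, limma called 0 of the 9 members, and 2 of them, Psph and Mthfd2, were lower at an unadjusted p under 0.05. Over all genes tested, 0.757% were higher and 0.0378% lower after adjustment, and 14.4% had an unadjusted p under 0.05, with 7.6% of all genes both under it and lower. Mthfd2 averaged 17.9 ± 1.001 FPKM in the WT_30C mice and 13.8 ± 1.63 FPKM in the AKO_30C mice, all 3 AKO values below all 3 WT values (-0.36, SE 0.15, adjusted p = 0.315). Psph (-0.24, adjusted p = 0.272), Mthfd1l (-0.27, adjusted p = 0.410) and Mthfd1 (-0.13, adjusted p = 0.547) lay lower in AKO without overlap as well. The groups overlapped for 6 of the 10 members. How many of all genes lay lower without overlap is not given here, so this separation cannot be read as a trait of the members. Phgdh lay at 101 ± 9.36 FPKM in WT_30C and 118.8 ± 20.4 FPKM in AKO_30C with overlap (0.22, adjusted p = 0.550). None of the 10 members is in the authors' deposited table for 30 °C. Fibroblast and progenitor markers were 290.9 to 395.9 FPKM in WT_30C and 736.2 to 1293 FPKM in AKO_30C, and macrophage markers 586.5 to 702 against 877.4 to 1316 FPKM. T cell markers were lower in AKO_30C without overlap, at 429.7 to 487.6 FPKM against 541.8 to 752 FPKM, with 0 of 11 called and 8 of 11 lower at an unadjusted p under 0.05 in limma's test. Cell division markers were 149.6 to 194.7 FPKM in WT_30C and 149.3 to 155.5 FPKM in AKO_30C. The part of these sets in these differences was not tested.

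The interaction asks whether the genotype difference itself changed with temperature. For Mthfd2 it was 1.27 (SE 0.22, 95% interval 0.79 to 1.74), higher than in 99.7% of all genes tested, with an adjusted p of 0.0612 that misses the threshold. It passed only without WT_8C replicate 3 (1.43, adjusted p = 0.0266), in a range of 0.0266 to 0.188 over the alternatives. limma called 0 of 9 members, with 3 at an unadjusted p under 0.05, namely Mthfd2, Shmt1 at 0.71 (adjusted p = 0.220) and Psph at 0.39 (adjusted p = 0.222). At an unadjusted p under 0.05 stood 14.9% of all genes tested. After adjustment 0.0605% were called above 0 and 0.053% below, with 53.3% of the calls above 0, against 30.0% with upper quartile scaling and 37.5% with equal sums. A cold response of any of these genes that differs between the genotypes is therefore not shown at this threshold.

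The 2 arms were set against each other within each library, as a description without a test, since a ratio within a library is free of the scaling between libraries. The summed FPKM of Shmt2, Mthfd2, Mthfd2l, Mthfd1l and Aldh1l2 was 2.97, 2.68 and 3.15 times that of Shmt1 and Mthfd1 in WT_30C and 2.69, 2.56 and 2.61 times in AKO_30C. In the cold it was 1.30, 1.44 and 1.59 times in WT and 1.60, 1.60 and 1.36 times in AKO, so the cold libraries lay below all libraries at 30 °C and the genotypes overlapped at both temperatures. What went into the ratio differed. The mitochondrial sum was 62.2 ± 6.27 FPKM in WT_30C and 45.9 ± 7.06 in WT_8C but 51.5 ± 1.85 in AKO_30C and 61.2 ± 2.35 in AKO_8C. The higher sum in AKO_8C was not shared by the whole arm. From AKO_30C to AKO_8C, mean Mthfd2 went from 13.8 to 27.6 FPKM and Mthfd2l from 2.21 to 3.66. Mean Shmt2 went from 28.7 to 25.6 FPKM and Mthfd1l from 6.48 to 4.15. The cytosolic sum went from 21.2 ± 0.994 to 31.7 ± 1.74 FPKM in WT and from 19.7 ± 0.612 to 40.5 ± 4.79 FPKM in AKO.

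By paralog, Shmt2 exceeded Shmt1 4.65 ± 0.609 times in WT_30C and 4.14 ± 0.634 times in AKO_30C. The ratio was 1.69 ± 0.180 in WT_8C and 1.13 ± 0.214 in AKO_8C, where 1 library, replicate 3 at 0.886, had more Shmt1 than Shmt2. Mthfd1l over Mthfd1 was 0.574 ± 0.0517 in WT_30C, 0.514 ± 0.0609 in AKO_30C, 0.235 ± 0.0486 in WT_8C and 0.240 ± 0.0547 in AKO_8C. Mthfd2 over Mthfd1 ran against these in AKO, from 1.10 ± 0.184 at 30 °C to 1.58 ± 0.0564 at 8 °C, and in WT from 1.29 ± 0.112 to 0.844 ± 0.266.

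**Figure D4:**
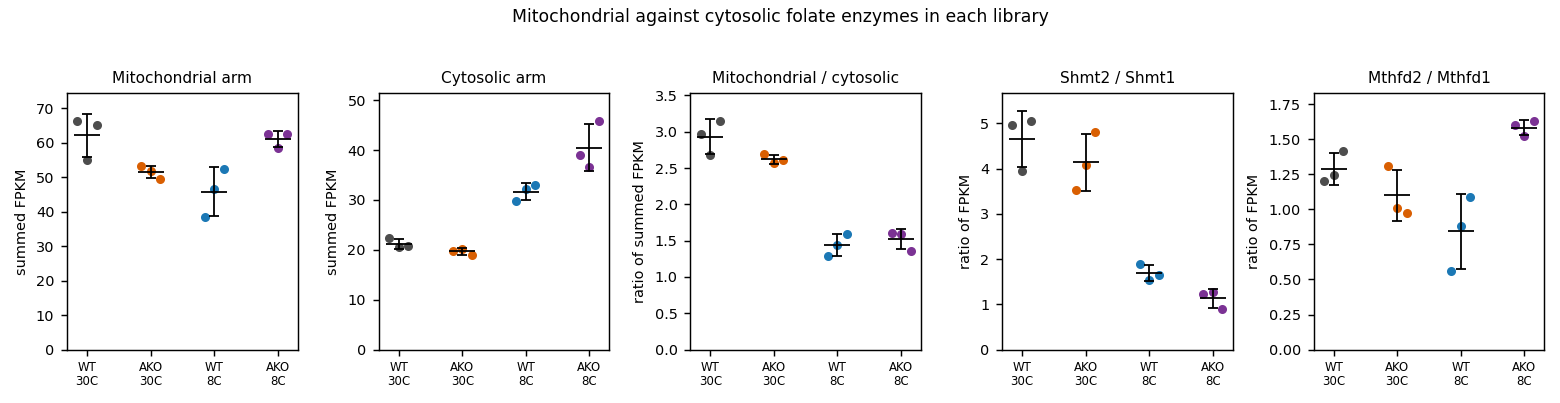
Summed FPKM of the mitochondrial genes (Shmt2, Mthfd2, Mthfd2l, Mthfd1l, Aldh1l2) and of the cytosolic genes (Shmt1, Mthfd1), their ratio, and the ratios of Shmt2 to Shmt1 and Mthfd2 to Mthfd1, in each library (points) with group mean and SD (bars). The ratio of the arms lies between 1.30 and 1.60 in all cold libraries and between 2.56 and 3.15 at 30 °C.

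Related genes came from lists written with earlier results of these data known, and are described by counts. Of 22 tested genes listed as ATF4 or its stress response targets, 8 rose in AKO over WT at 8 °C and 0 fell. Of all genes tested, 1.46% were called higher and 0.568% lower. The median log2 fold change of the 22 was 0.54, against 0.03 over all genes. Fgf21 reached 1 FPKM only at 8 °C and Slc7a11 only at 30 °C, so each entered the test through 1 temperature. Without them 7 of 20 rose and 0 fell. Calls over all genes went from 193 higher and 75 lower to 5 and 1 with only the 6 libraries at 8 °C fitted. Without AKO_8C replicate 3 they went to 17 and 6. How many of the genes listed here stayed called in those fits is not given. Atf4 itself had 105, 135 and 124 FPKM in WT_8C and 189.8, 216.5 and 189.4 FPKM in AKO_8C (0.71, adjusted p = 0.0306), and Trib3, a pseudokinase induced by ATF4, rose by 1.63 (adjusted p = 0.0340). Asns, the asparagine synthetase, was 59.6 ± 16.3 and 75.9 ± 12.3 FPKM and did not pass (0.36, adjusted p = 0.329). Among 7 tested transporters, Slc38a2, which imports neutral amino acids, rose from 34.4 ± 3.99 to 58.4 ± 5.27 FPKM (0.75, adjusted p = 0.0426), while the median of the 7 was -0.25. Sfxn2 at -0.77 (adjusted p = 0.174) and Slc7a10, a serine and alanine exchanger, at -0.54 (adjusted p = 0.383) did not pass. The authors' deposited table lists both as lower, at -0.81 with a q-value of 0.000301 for Sfxn2 and at -0.59 with a q-value of 0.00284 for Slc7a10. Slc25a32, the mitochondrial folate carrier, was 8.69 ± 1.69 FPKM in WT_8C and 14.4 ± 3.02 FPKM in AKO_8C, without passing (0.67, adjusted p = 0.0719). The authors' deposited table gives it a log2 fold change of 0.73 with a q-value of 0.000301.

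In the cold, Slc25a32 rose in both genotypes, by 0.67 in WT (adjusted p = 0.00793) and 1.36 in AKO (adjusted p = 6.09e-05), beside the folate carrier Slc19a1 at 1.09 in WT and 1.09 in AKO. The counts that follow are to be read against the shares of all genes given above, 24.3% higher and 24.7% lower in WT and 26.5% higher and 23.1% lower in AKO. Of 12 other folate genes, 5 rose and 3 fell in WT, and 4 rose and 2 fell in AKO. Aldh1l1, the cytosolic counterpart of Aldh1l2, rose from 47.6 ± 17.4 to 150.7 ± 63.0 FPKM in WT (1.63, adjusted p = 0.00105) and from 58.0 ± 11.9 to 117.2 ± 15.5 FPKM in AKO (1.01, adjusted p = 0.0158), far above the level of Aldh1l2. Of 12 glycine cleavage and serine use genes, 6 rose and 0 fell in WT and 7 rose and 1 fell in AKO. Gldc, the decarboxylase of glycine cleavage, is among the risers but reached 1 FPKM in 5 libraries, all at 8 °C, so it entered the test through the group where it is high. Without it 5 of 11 rose in WT, and 6 rose and 1 fell in AKO. Gcsh, the carrier protein of glycine cleavage, rose by 1.05 in WT and 0.99 in AKO. Amt, the aminomethyltransferase of glycine cleavage, was the gene that fell in AKO, from 3.23 ± 0.153 to 1.92 ± 0.409 FPKM. In WT it had 3.72 ± 0.651 FPKM at 30 °C and 2.71 ± 0.425 FPKM at 8 °C, with overlap, and was not called. Of the 7 transporters, 2 rose and 2 fell in each genotype. Sfxn1, a mitochondrial serine carrier, rose by 1.118 in WT and 1.16 in AKO, while its paralog Sfxn3 fell by 0.46 and 0.36 and the amino acid importer Slc38a1 fell by 0.81 and 0.74. Of 12 purine and thymidylate genes, 1 rose and 8 fell in WT and 1 rose and 5 fell in AKO. Paics, a purine enzyme, rose by 0.34 in WT and 0.61 in AKO, while Impdh2, of guanine nucleotide synthesis, fell by 0.59 and 0.54 and Tk1, the thymidine kinase of dividing cells, fell by 0.81 and 0.78. The cell division markers given above moved in the same direction as Tk1, and their part in it was not tested.

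**Figure D5:**
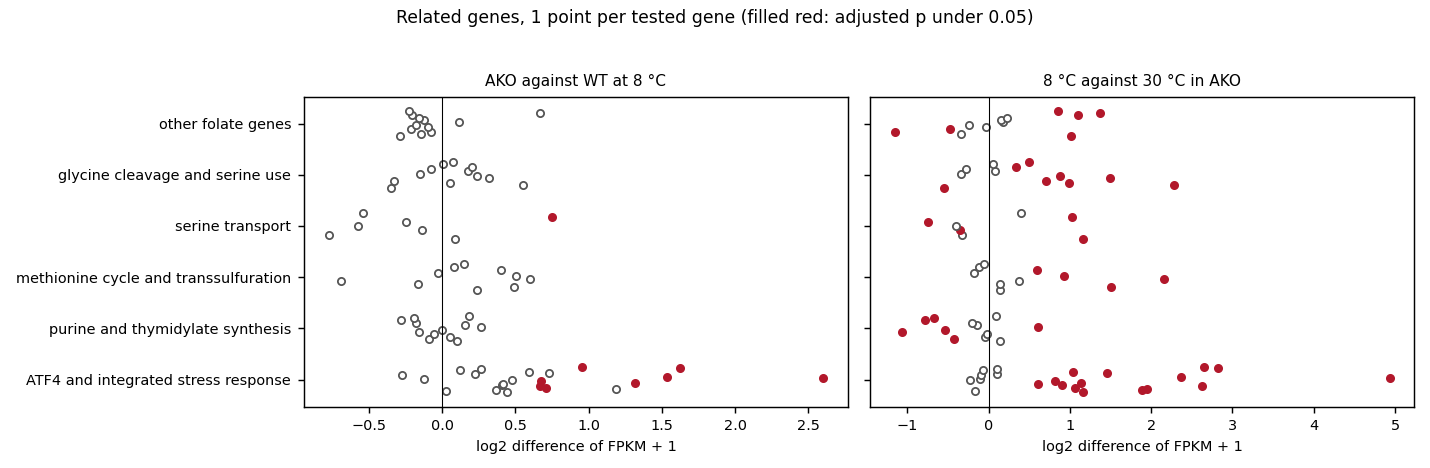
Log2 difference on the scale of FPKM + 1 for each tested gene of the 6 related lists (points, spread vertically for legibility), in AKO against WT at 8 °C and in 8 °C against 30 °C in AKO, filled red where the adjusted p was under 0.05. In the genotype comparison 8 of the 22 stress response genes and 1 transporter, Slc38a2, are filled.

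Likeness of pattern was measured as the root mean square distance between log2(FPKM + 1) values standardised over the 12 libraries, in SD units, for 12413 tested genes. Nearest to Mthfd2 were Vprbp at 0.340, Yrdc at 0.344, Arhgef2 at 0.360, Soat2 at 0.399 and Lin54 at 0.448, where the median gene lay at 1.40. Soat2 reached 1 FPKM only in AKO_8C, at 1.25 to 1.34 FPKM. It thus entered through the group where Mthfd2 is high, near the limit of the filter. The nearest genes were picked as the closest of 12413, so their distance from the median gene was not a test. Nearest to Shmt2 were Tubgcp6 at 0.269, Cks2 at 0.287, Ccnb1 at 0.333, Esco2 at 0.346 and Nup160 at 0.348. Esco2 was also near the limit of the filter, at 0.659 to 1.52 FPKM in WT_30C, where mean Shmt2 was highest. Its highest value was 0.984 FPKM in AKO_30C, 0.616 in WT_8C and 1.06 in AKO_8C. Phgdh was followed most closely by Rab29 at 0.374 and Uap1l1 at 0.415, and Psat1 by Clmp, Cyb5a and Proca1, each at 0.373. Among the members, the closest pair was Psph and Shmt1 at 0.411, then Psph and Mthfd1 at 0.453.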

How the data were processed

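Per the submitters' processing notes, bcl2fastq, FastQC 0.11.3, TopHat2 2.0.14 and Cufflinks 2.2.1 were used with the mm10 build. The authors deposited FPKM per gene and library, with no counts, so depth is unknown, and FPKM summed to 594202 to 743185 per library. Their tables per temperature hold group FPKM, log2 fold changes, a test statistic (a score), p-values and q-values, per the file headers, and were used only where named. From the deposited FPKM, log2(FPKM + 1) was fitted with limma 3.58.1 (R 4.3.3, variance trend) over all 12 libraries with 1 mean per group. Genes at 1 FPKM or more in at least 3 libraries entered, except 2 whose values jump between 0 and at least 1000 FPKM across libraries. P-values were adjusted by Benjamini-Hochberg over 13215 genes with a threshold of 0.05. Each difference was set against the spread between mice within groups, 3 per group. That spread was pooled over all 12 libraries and moderated across genes, so it is not that of the 2 compared groups alone. The script was tested on simulated data. Figures used Python 3.11.15 and matplotlib 3.10.9. All members were reported, and the named genes beyond them came from the related lists and the 5 nearest patterns. The members and lists were chosen with earlier results of these data known. Alternatives were other pseudocounts, filters, scalings, fits with no trend, only the compared groups or a replicate block, and leaving out each library.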

Additional observations from a re-analysis of the deposited data

Results flagged for a closer look

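In the deposited FPKM, 4 quantities had every AKO library below every WT library at 30 °C and above every one at 8 °C. These were the genes Mthfd2 and Psph and the sums of the mitochondrial and of the cytosolic genes. They are not independent, since Mthfd2 is part of the mitochondrial sum. Some gaps were narrow. Psph was 12.84 FPKM in AKO_30C replicate 1 and 12.98 in WT_30C replicate 3. At 8 °C it was 30.69 FPKM in AKO_8C replicate 3 and 30.01 in WT_8C replicate 3. The cytosolic sum was 20.21 FPKM in AKO_30C replicate 2 and 20.54 in WT_30C replicate 2. Median-ratio factors of the libraries ran from 0.953 to 1.029, so these gaps can close under another scaling. In the cytosolic sum, Shmt1 averaged 14.2 FPKM in WT_8C and 23.1 in AKO_8C, and Mthfd1 17.5 and 17.4. For Mthfd2 the difference between the genotype effects was 1.27 on the log2 scale (limma, adjusted p = 0.0612), and for Psph it was 0.39 (adjusted p = 0.222), so neither passed the interaction test. For the summed FPKM of the mitochondrial genes the difference of the differences was 26.0 FPKM, and for the cytosolic genes 10.4 FPKM. The difference in these sums was not tested. Of all 13215 genes tested, 99 (0.749%) crossed in this way without overlap, a share for single genes that does not apply to the sums.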

How the results depend on the processing

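Cold calls of Psph, Shmt1 and Mthfd1l in both genotypes, of Shmt2 in WT and of Phgdh and Mthfd2 in AKO kept their direction and passed under every alternative run. Between genotypes at 8 °C, 1 member was called, against 2 with the filter at 5 FPKM and 0 with only the compared groups fitted. Leaving out 1 library at a time gave 0 to 0 members called between genotypes at 30 °C, 0 to 1 at 8 °C, 4 to 7 with cold in WT, 6 to 8 with cold in AKO and 0 to 1 in the interaction. Over all genes this gave 0 to 28 higher and 0 to 1 lower between genotypes at 30 °C. At 8 °C it gave 17 to 139 higher and 6 to 57 lower. Scaling to equal sums lost the cold calls of Psat1 and Mthfd1 in both genotypes and of Mthfd2l in AKO, and upper quartile scaling lost that of Psat1 in AKO. Equal sums added falls with cold of Shmt2 in AKO (-0.42, adjusted p = 0.0150) and of Mthfd2 in WT (-0.45, adjusted p = 0.0324). Of 805 values of single members under alternatives, 21 lost a call, 10 gained one and 25 had the opposite sign, called under neither setting. Whether replicate numbers pair the samples is not given, and the libraries did not settle it. Correlations of same-numbered libraries ran from -0.11 to 0.20, and 8 of 18 pairs exceeded 0.1. The own number had the highest correlation in 8 of 18 pairs. With the replicate block, genes called in AKO against WT at 8 °C went from 193 higher and 75 lower to 304 and 115. At 30 °C they went from 100 higher and 5 lower to 1 and 0. With the replicate block, 0 and 1 members were called between genotypes at 30 °C and 8 °C, 7 and 8 with cold in WT and AKO, where Mthfd2l was the gene added in WT (adjusted p = 0.0328), and 0 in the interaction. Depth limits for Aldh1l2, the member under 1 FPKM, cannot be given.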
